A study of Mus musculus with 7 samples.

Results

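The 10 genes described here encode products of cochlear supporting cells: the tectorial membrane and gel proteins Tecta, Tectb, Otog, Otogl, Otoa and Ceacam16, and the supporting cell products Emid1, S100a1, Lrrn1 and Fkbp9. They were taken by name from the 48709 genes of each deposited table. All 10 were found in the tables, and 9 were among the 14907 genes with enough counts to be tested. Ceacam16 was not.

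RNA was measured in 7 libraries of GFP-positive supporting cells, sorted from organ cultures of mouse cochleae taken at postnatal day 1. Supporting cells are the non-sensory epithelial cells that surround the hair cells. Cultures received DMSO, the solvent (2 libraries), 10 µM GSK-343, an inhibitor of the histone methyltransferase EZH2 (3 libraries), or 200 nM TSA, the histone deacetylase inhibitor trichostatin A (2 libraries), each for 48 h. All cultures were kept in the same medium, which held N2, B27, penicillin G, EGF, FGF and HEPES. The labels name neither the GFP line nor the mouse strain, and they do not say whether replicates came from separate cultures or animals. The p-values therefore measure only the spread between these samples, which may be technical.

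The tectorial membrane is the extracellular sheet that lies over the hair cells and couples sound to their hair bundles. It is built of collagens and of non-collagenous glycoproteins, chiefly the tectorins, which assemble through zona pellucida domains. The epithelial cells of the cochlear floor secrete it before and shortly after birth, and mutations in several of its genes cause deafness.

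Total expected counts were 5124247 to 5974230 in DMSO, 3398893 to 4248336 in GSK-343 and 2724381 to 2963228 in TSA. Mitochondrial genes took 25.5% to 26.8% of the counts in DMSO, 4.31% to 9.44% in GSK-343, and 11.4% and 19.1% in TSA. The deposited length of a gene was larger than its effective length by 49 bases (median) in each DMSO library, but by 208.21 to 212.69 bases in each of the 5 libraries from treated cultures. Every comparison with DMSO is thus also one between library layouts, and the effects of treatment and layout cannot be told apart there. The treated libraries share 1 layout. The supporting cell markers Sox2 (91.0 to 158 TPM over the 7 libraries), Lfng (791 to 1738 TPM), Hes5 (249 to 1275 TPM) and Gjb2 (235 to 601 TPM) were present in every library. So were Prox1 (42.4 to 313 TPM), Fgfr3 (167 to 483 TPM), Jag1 (132 to 377 TPM) and Slc1a3 (43.2 to 234 TPM). Prox1 and Jag1 were highest in DMSO. Of the 32 such markers listed, Trp73 (0 to 0.51 TPM), Bmp4 (0 to 5.9 TPM) and Slc2a3 (0.26 to 11.8 TPM) were at or near 0 in some libraries.

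The promoters of 4 members are shown because these genes had the smallest p between TSA and GSK-343: Tecta, Emid1 and S100a1 were lower under TSA, and Lrrn1 was higher. Each sequence reads 5′ to 3′ on the strand of the gene and comes from the 250 bases before a RefSeq start (GRCm38.p6). For Tecta and Lrrn1 it ends at the base before that start. For Emid1 and S100a1 it ends further upstream, at the base before the gene begins in GENCODE M21, so it is shorter than 250 bases. Emid1 and Tecta have another RefSeq start each, and the sequence shown for them is the one nearest to the start of the GENCODE gene. The stretches lie at chr9:42399948-42400197 (minus strand) for Tecta, chr11:5152258-5152480 (minus) for Emid1, chr3:90514393-90514580 (minus) for S100a1 and chr6:107529476-107529725 (plus) for Lrrn1. Capitals mark matches on either strand to TATAAA (the TATA box), CCAAT (the CCAAT box), GGGCGG (the GC box), ACAAAG (a core of SOX factor sites) or AGATAA (a core of GATA factor sites).
Tecta: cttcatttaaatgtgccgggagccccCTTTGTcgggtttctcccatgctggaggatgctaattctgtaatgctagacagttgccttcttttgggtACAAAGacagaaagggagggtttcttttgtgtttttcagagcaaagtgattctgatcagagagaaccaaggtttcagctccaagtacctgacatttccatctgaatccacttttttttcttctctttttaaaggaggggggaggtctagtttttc
Emid1: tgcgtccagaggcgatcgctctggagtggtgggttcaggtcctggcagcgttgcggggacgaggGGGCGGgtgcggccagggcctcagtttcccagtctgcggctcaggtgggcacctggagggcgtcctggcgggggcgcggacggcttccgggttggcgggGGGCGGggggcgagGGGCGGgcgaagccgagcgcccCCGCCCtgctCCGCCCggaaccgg
S100a1: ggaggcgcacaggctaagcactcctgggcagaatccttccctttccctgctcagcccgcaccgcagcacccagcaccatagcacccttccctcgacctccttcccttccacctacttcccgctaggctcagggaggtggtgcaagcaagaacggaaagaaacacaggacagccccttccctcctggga
Lrrn1: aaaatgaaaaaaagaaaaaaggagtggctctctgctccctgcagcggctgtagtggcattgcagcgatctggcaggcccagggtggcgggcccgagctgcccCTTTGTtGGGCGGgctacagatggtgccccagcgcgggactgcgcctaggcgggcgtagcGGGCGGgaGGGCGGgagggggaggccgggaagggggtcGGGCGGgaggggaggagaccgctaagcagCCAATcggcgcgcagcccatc

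These 4 promoters differ in base composition. Counts are over the whole 250 bases. The Emid1 window shown held 5 GC boxes and 31 CpG dinucleotides, and the Lrrn1 window 4 GC boxes, 1 CCAAT box, 1 SOX core and 20 CpG. The Tecta window shown held 2 SOX cores and 2 CpG, and the S100a1 window none of the 5 motifs and 8 CpG. The median over 32851 RefSeq promoter windows of 250 bases was 6 CpG. Of those windows, 32.7% held a GC box, 33.8% a CCAAT box, 16.5% a SOX core, 12.4% a TATA box and 9.99% a GATA core. A match describes the letters only. The ratio of observed to expected CpG in these windows was 0.868 for Emid1 and 0.742 for Lrrn1, against 0.173 for Tecta, 0.349 for S100a1 and a median of 0.373. The windows of the other starts differed from those shown. That of Emid1 held 6 CpG, 1 SOX core and no GC box, with a ratio of 0.24, and that of Tecta held 5 CpG and none of the 5 motifs, with a ratio of 0.392. Of the other members, Tectb, Otog, Otoa and Fkbp9 also matched a RefSeq promoter, and Otogl and Ceacam16 did not.

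Levels below are in CPM, the TMM-normalised count scaled to library size, with mean ± SD over n = 2 DMSO, n = 3 GSK-343 and n = 2 TSA libraries. Differences between groups are on the log2 scale and carry their SE. Each adjusted p is from edgeR's quasi-likelihood test, with the Benjamini-Hochberg method over all 14907 genes and a threshold of 0.05. In bulk samples, fewer cells of a type and less RNA per cell cannot be told apart. Where genes are compared with each other, TPM is used, which is scaled per transcript length.

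Between TSA and GSK-343, 7 of the 9 tested members differed: Tecta, Otog, Otoa, Emid1, S100a1 and Fkbp9 were lower under TSA, Lrrn1 was higher, and Tectb and Otogl did not pass the test. Among all 14907 genes, 10.7% were called, 5.04% higher and 5.68% lower. The median log2 difference was -1.38 over the tested members and 0.00 over all tested genes. Against DMSO, TSA gave 5 called members: S100a1 was higher, and Tecta, Otog, Otogl and Emid1 were lower. The background of that comparison was 29.2%, with 13.1% higher and 16.1% lower. GSK-343 against DMSO gave 4 called members, S100a1 and Fkbp9 higher and Otogl and Lrrn1 lower, where 39.6% of all genes were called, 18.1% higher and 21.5% lower. The member share there is thus close to the background. On the TPM scale, limma called 1 member higher and 1 lower between TSA and GSK-343, 3 higher and 2 lower in TSA against DMSO, and 5 higher and 1 lower in GSK-343 against DMSO. The members' median log2 difference from DMSO was -0.92 in TSA, where that of all genes was -0.05, and 0.08 in GSK-343, where that of all genes was -0.04. The comparisons with DMSO share the same 2 DMSO libraries, and all 3 comparisons share samples, so they are not independent. The shares over all genes given here are also the background for the lists of other genes below.

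**Figure D1:**
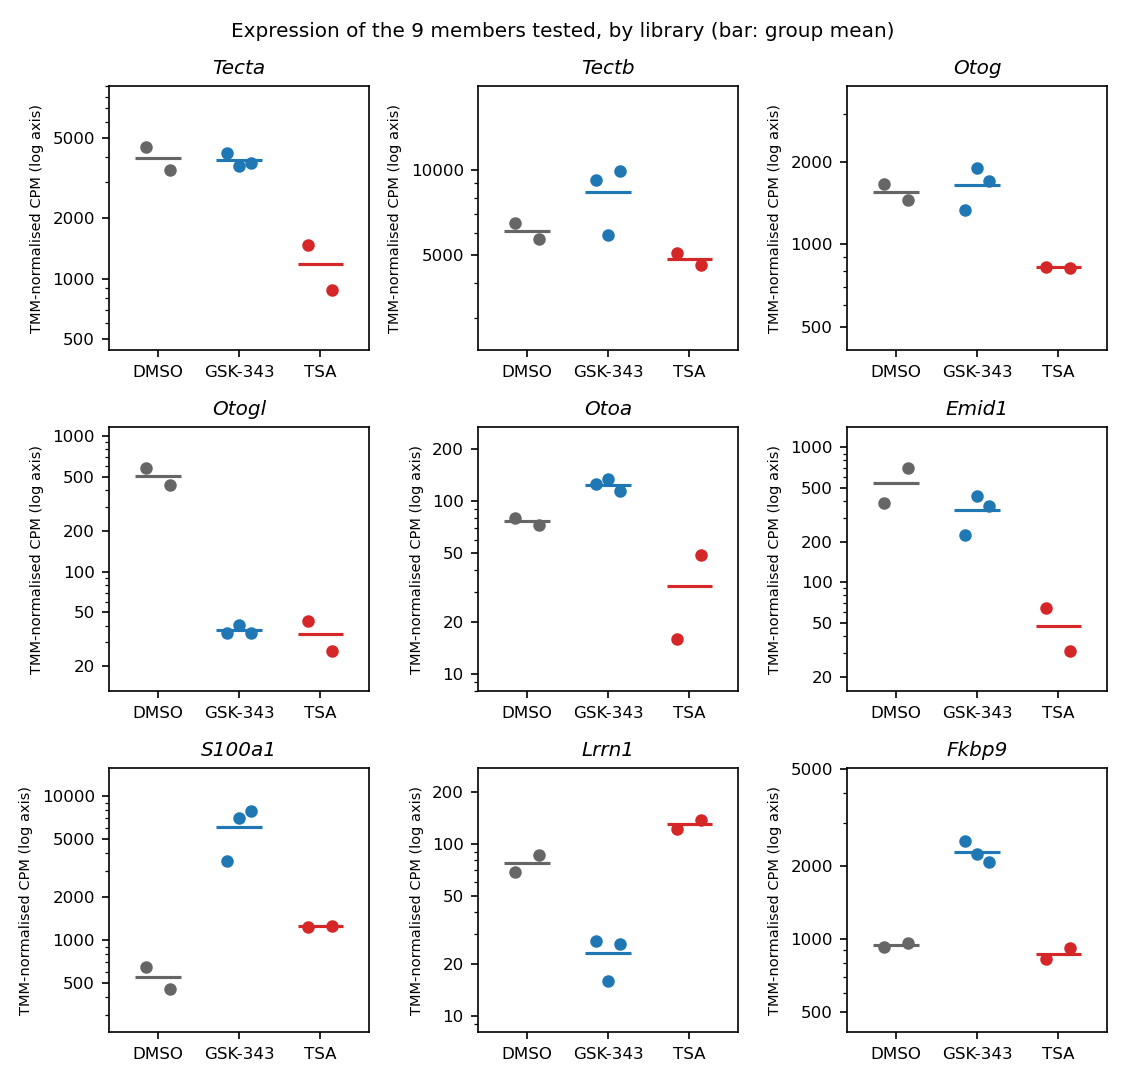
TMM-normalised CPM (log axis) of the 9 members with counts enough to test, 1 panel per gene, with 1 point per library and a bar at the mean of each group (2 DMSO, 3 GSK-343 and 2 TSA libraries). The TSA points lie below all GSK-343 points for Tecta, Tectb, Otog, Otoa, Emid1, S100a1 and Fkbp9, and above them for Lrrn1. For Otogl, 1 TSA point lies above and the other below the GSK-343 points.

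Tecta encodes alpha-tectorin, a large glycoprotein that is a main non-collagenous component of the tectorial membrane. Its gene lies on the minus strand at chr9:42329619-42399929 (GRCm38). Its level was 4519 and 3461 CPM in the DMSO libraries, 4211, 3625 and 3766 CPM with GSK-343, and 1473 and 880 CPM with TSA. Both TSA libraries were below every other library, and DMSO and GSK-343 overlapped. The group means were 3990 ± 748, 3867 ± 306 and 1176 ± 420 CPM. Tecta was lower under TSA than under GSK-343 by a log2 difference of -1.72 ± 0.33 (adjusted p = 0.00774) and lower than in DMSO by -1.76 ± 0.35 (adjusted p = 0.00243). GSK-343 against DMSO gave -0.05 ± 0.31 (adjusted p = 0.922). Without TSA replicate 2, the library with the lowest Tecta level, the difference from GSK-343 was -1.41 and was no longer called (adjusted p = 0.0805). Fitted by limma on log2(TPM + 1), the differences were -1.69 for TSA against GSK-343 (adjusted p = 0.0565), -0.15 for TSA against DMSO (adjusted p = 0.801) and 1.54 for GSK-343 against DMSO (adjusted p = 0.0196).

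TPM, unlike CPM, divides by the effective transcript length and is not TMM-scaled. The length assigned to Tecta differed between libraries, and its part in the differences on the TPM scale was not tested. The abundance-weighted transcript length was 4348 and 3877 bases in DMSO, 2547, 2525 and 2401 bases in GSK-343, and 3025 and 2961 bases in TSA. The 3 groups did not overlap. GENCODE M21 lists 2 full-length coding transcripts of Tecta, of 7338 and 7048 bases, and a processed transcript of 2165 bases with 9 exons at the 3′ end of the gene. If all Tecta RNA were split between the short and a full-length form, these lengths would put 55.3% to 66.9% of its TPM in the short form in DMSO, 92.2% to 95.4% in GSK-343 and 82.4% to 84.6% in TSA. The split between forms is an estimate of the quantifier, and reads were not analysed here. Between DMSO and the treated libraries, layout and treatment cannot be told apart in it.

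Tectb encodes beta-tectorin, the partner of alpha-tectorin in the striated sheet of the membrane, and lies on the plus strand at chr19:55180733-55196313, where it overlaps the microRNA gene Mir6715. Its levels were 6508 and 5739 CPM in DMSO, 9229, 5921 and 9960 in GSK-343, and 5117 and 4608 in TSA. The TSA libraries were again the lowest, though GSK-343 replicate 2 lay close to DMSO. The means were 6124 ± 544, 8370 ± 2152 and 4862 ± 360 CPM. No comparison passed the test: TSA against GSK-343 gave -0.78 ± 0.32 (adjusted p = 0.127), TSA against DMSO -0.33 ± 0.35 (adjusted p = 0.498) and GSK-343 against DMSO 0.45 ± 0.32 (adjusted p = 0.276). Scaled by total count, the difference of GSK-343 from DMSO was 0.91 and passed (adjusted p = 0.0359). That scaling put the median of all genes at 0.42 in the same comparison. Tectb was among the most abundant genes of these cells, ranking 19th and 30th by TPM in DMSO, 7th, 14th and 9th in GSK-343, and 7th and 11th in TSA.

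The tectorins did not keep a fixed proportion. Within each library, the TPM of Tecta was 32.8% and 34.2% of that of Tectb in DMSO, 46.9%, 64.4% and 41.5% in GSK-343, and 24.7% and 16.7% in TSA. The 3 groups did not overlap in this ratio, which involves no scaling between libraries. It does carry the assigned lengths of both genes, and that of Tectb was 2082 and 2221 bases in DMSO and 2614 to 2643 bases in the treated libraries. In expected counts, not divided by length, DMSO and GSK-343 overlapped in this proportion, and TSA stayed lowest. Tecta had 20120 and 13280 counts beside 28980 and 22020 of Tectb in DMSO. In GSK-343 it had 14860, 14890 and 16290 beside 32570, 24330 and 43080, and in TSA 5259 and 2999 beside 18270 and 15710. The difference in this ratio between groups was not tested.

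Otog encodes otogelin, a large mucin-like glycoprotein of the acellular gels of the inner ear, on the plus strand at chr7:46240987-46311434. It was measured at 1664 and 1453 CPM in DMSO, at 1337, 1893 and 1702 in GSK-343, and at 827 and 820 in TSA. Both TSA libraries were lower than the other 5, which overlapped. The means were 1558 ± 149, 1644 ± 283 and 824 ± 4.71 CPM. The difference of TSA from GSK-343 was -1.0 ± 0.30 (adjusted p = 0.0435), and that from DMSO was -0.92 ± 0.32 (adjusted p = 0.0406). GSK-343 against DMSO gave 0.08 ± 0.29 (adjusted p = 0.854). Both Otog calls lie near the threshold: without robust estimation of the dispersion, adjusted p was 0.0679 and 0.0628. The call against GSK-343 was also lost when any library other than GSK-343 replicate 1 was left out (adjusted p = 0.074 to 0.241), and the call against DMSO without either DMSO library, either TSA library or GSK-343 replicate 3 (adjusted p = 0.0692 to 0.203). On the TPM scale, the difference of TSA from DMSO turned to 0.82 (adjusted p = 0.0533).

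The weighted length of Otog also differed between layouts: it was 5614 and 5320 bases for DMSO, and 3628 to 3704 bases over the 5 treated libraries. The annotation lists a full-length transcript of 10043 bases with 56 exons, and a shorter coding transcript of 3558 bases with 18 exons at the 3′ end. The weighted lengths would put 27.2% to 43.5% of Otog TPM in the full-length form for DMSO, but 1.08% to 19.1% for the treated libraries, depending on which short transcript takes the rest. Unlike Tecta, TSA (3704 and 3697 bases) and GSK-343 (3628, 3695 and 3628 bases) stood close together. For Otog and Tecta alike, the treated libraries had the shorter lengths. For Tectb, as given above, and Emid1 (1082 and 1097 bases in DMSO, 1299 to 1410 in the treated libraries) they had the longer ones.

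**Figure D2:**
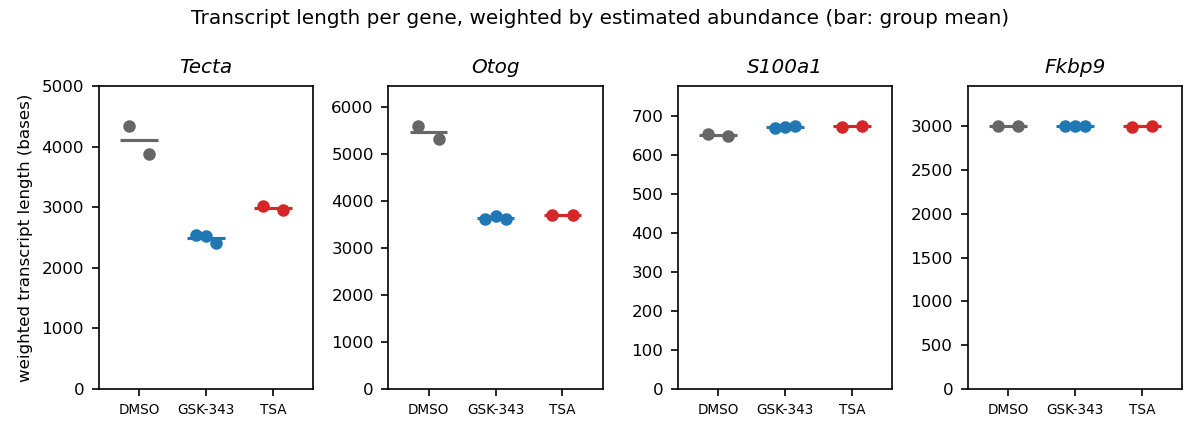
Abundance-weighted transcript length in bases, as deposited, for Tecta, Otog, S100a1 and Fkbp9, with 1 point per library and a bar at the group mean. S100a1 and Fkbp9 keep nearly the same length in all libraries. Tecta and Otog have longer assigned lengths in DMSO (3877 to 4348 and 5320 to 5614 bases) than in the treated libraries (2401 to 3025 and 3628 to 3704 bases).

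Otogl encodes otogelin-like, a relative of otogelin whose loss causes hearing loss in people, on the minus strand at chr10:107760531-107912134. Its levels were 585 and 433 CPM in DMSO, 35.1, 40.4 and 35.1 in GSK-343, and 43.4 and 26.1 in TSA. The treated libraries were all far below both DMSO libraries, and TSA and GSK-343 overlapped. The means were 509 ± 108, 36.9 ± 3.04 and 34.8 ± 12.2 CPM. TSA against DMSO gave -3.87 ± 0.39 (adjusted p = 1.65e-05) and GSK-343 against DMSO -3.79 ± 0.33 (adjusted p = 2.54e-06). TSA against GSK-343 gave -0.09 ± 0.33 (adjusted p = 0.906). Because both treatments also differ from DMSO in layout, the drop in Otogl cannot be assigned to either treatment. Otogl has the lowest transcript GC content of the members, 42.7% against a median of 50.0% over the genes tested, by GENCODE M21. Its deposited length was 7071 bases in all 7 libraries, while the M21 transcript, of another version, has 8763 bases, so the GC content and any correction based on M21 may not fit the transcript that was quantified. With the dependence on GC content and length taken out, the difference from DMSO was -2.70 for TSA and -1.67 for GSK-343, both still called.

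Otogl and Otog were closer in DMSO than in either treatment. In TPM, Otogl was 27.9% and 22.4% of Otog in DMSO, 1.31%, 1.08% and 1.03% in GSK-343, and 2.67% and 1.62% in TSA. By TPM it ranked 893 and 1163 in DMSO, but between 8521 and 10005 after either treatment.

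Otoa encodes otoancorin, which anchors the tectorial membrane to the spiral limbus, on the plus strand at chr7:121081650-121163097. It was measured at 80.0 and 73.3 CPM in DMSO, at 126, 134 and 114 in GSK-343, and at 15.96 and 48.7 in TSA. All 3 groups were separate, with GSK-343 highest and TSA lowest. The means were 76.6 ± 4.74, 125 ± 9.87 and 32.3 ± 23.1 CPM, and the TSA libraries differed widely from each other. Otoa was lower under TSA than under GSK-343 by -1.95 ± 0.44 (adjusted p = 0.0143). TSA against DMSO gave -1.25 ± 0.46 (adjusted p = 0.0513) and GSK-343 against DMSO 0.70 ± 0.41 (adjusted p = 0.189). The 2 TSA libraries decide the first value: it was -1.36 without TSA replicate 1 (adjusted p = 0.0926) and -2.98 without TSA replicate 2. The second passed in several other settings, for instance the Wald test of DESeq2 (-1.24, adjusted p = 0.0346) and without TSA replicate 2 (-2.22, adjusted p = 0.00794).

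Ceacam16 encodes a secreted adhesion protein that binds alpha-tectorin and is known as a late component of the membrane. Its gene, on the minus strand at chr7:19852097-19861299, overlaps Gm19345 on the other strand. It had 1 count in all, in TSA replicate 2, which is 0.293 CPM. The other 6 libraries were at 0, which allows up to 3 counts per library, or 0.674 to 0.85 CPM, for counting error only. No difference was detectable at this depth.

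Emid1 encodes a secreted protein with an EMI domain and a collagen-like stretch, on the minus strand at chr11:5106265-5152257. Its levels were 390 and 708 CPM in DMSO, 225, 433 and 370 in GSK-343, and 64.4 and 31.1 in TSA. DMSO and GSK-343 overlapped, and both TSA libraries were below all of them. The means were 549 ± 225, 343 ± 107 and 47.8 ± 23.6 CPM. TSA was lower than GSK-343 by -2.84 ± 0.44 (adjusted p = 0.00268) and lower than DMSO by -3.52 ± 0.47 (adjusted p = 0.000151). GSK-343 against DMSO gave -0.68 ± 0.38 (adjusted p = 0.172), but -1.77 (adjusted p = 0.000785) with the dependence on GC content and length taken out. Emid1 has the highest transcript GC content of the 10 members, at 60.6%.

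S100a1 encodes a calcium-binding protein with EF hands that is used as a marker of pillar and Deiters' cells, on the minus strand at chr3:90511034-90514392. It was measured at 645 and 456 CPM in DMSO, at 3527, 7046 and 7850 in GSK-343, and at 1238 and 1260 in TSA. The groups were separate, in the order DMSO, TSA and GSK-343. The means were 551 ± 134, 6141 ± 2299 and 1249 ± 15.9 CPM. GSK-343 was higher than DMSO by 3.48 ± 0.41 (adjusted p = 2.87e-05), and TSA was lower than GSK-343 by -2.30 ± 0.38 (adjusted p = 0.00376). TSA was higher than DMSO by 1.18 ± 0.39 (adjusted p = 0.0331). The last call was lost without robust dispersion estimation (adjusted p = 0.0593), without DMSO replicate 1 (1.48, adjusted p = 0.0754), without DMSO replicate 2 (0.97, adjusted p = 0.198) and without TSA replicate 2 (1.21, adjusted p = 0.069).

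In GSK-343 libraries, S100a1 was one of the most abundant of all genes. By TPM it ranked 45th and 68th in DMSO, 2nd, 3rd and 2nd in GSK-343, and 5th and 6th in TSA. It took 0.120% and 0.0767% of all TPM in DMSO, 1.51%, 2.70% and 2.78% in GSK-343, and 0.669% and 0.563% in TSA. Set against Tectb in the same library, S100a1 TPM was 33.4% and 28.8% in DMSO, 201%, 627% and 408% in GSK-343, and 126% and 141% in TSA. S100a1 was thus below Tectb in both DMSO libraries and above it in the other 5. The assigned length of S100a1 varied only from 648 to 676 bases, whereas that of Tectb, the denominator of this ratio, was longer in the treated libraries. TPM divides by the effective length, however. The median gap between the 2 lengths was 49 bases in DMSO and 208.21 to 212.69 bases in the treated libraries. Such a gap takes a larger share of a transcript as short as S100a1, so layout enters its TPM, ranks and ratios. The size of that part was not tested. The 10 members together made up 0.725% and 0.574% of all TPM in DMSO, 2.91%, 3.72% and 4.0% in GSK-343, and 1.49% and 1.17% in TSA, most of it from S100a1, Tectb and Tecta.

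Lrrn1 encodes a transmembrane protein with leucine-rich repeats, known from neural tissue, on the plus strand at chr6:107529768-107570214. Its levels were 68.1 and 86.3 CPM in DMSO, 27.2, 16.1 and 26.1 in GSK-343, and 122 and 137 in TSA. It is the only tested member with its highest levels in TSA, and the 3 groups did not overlap. The means were 77.2 ± 12.9, 23.1 ± 6.14 and 130 ± 10.9 CPM. TSA was higher than GSK-343 by 2.48 ± 0.36 (adjusted p = 0.00195). GSK-343 was lower than DMSO by -1.74 ± 0.36 (adjusted p = 0.00175), and TSA against DMSO gave 0.75 ± 0.39 (adjusted p = 0.164). By limma on TPM, TSA against DMSO gave 1.87 and passed (adjusted p = 0.00806), and GSK-343 against DMSO gave -0.90 and did not (adjusted p = 0.0738).

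Lrrn1 and Emid1 moved in opposite directions between the treatments. In TPM, Lrrn1 was 4.95% and 3.50% of Emid1 in DMSO, 3.84%, 1.26% and 2.30% in GSK-343, and 65.0% and 138% in TSA. In TSA replicate 2 the level of Lrrn1 per transcript length was thus above that of Emid1. Neuron markers were also higher in TSA: their summed TPM over 14 genes was 64.4 and 48.7 in DMSO, 159, 52.2 and 97.7 in GSK-343, and 653 and 490 in TSA. Of these markers, 5 of 11 tested were higher in TSA than in GSK-343 (Stmn2, Map2, Snap25, Nefl and, outside the naming rule, Ntrk3) and none lower (8 and 0 at an unadjusted p under 0.05, 5 and 0 by DESeq2). The part of neuronal RNA in the Lrrn1 result was not tested.

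Fkbp9 encodes a peptidyl-prolyl isomerase of the endoplasmic reticulum, on the plus strand at chr6:56832059-56879358. It was measured at 926 and 966 CPM in DMSO, at 2523, 2238 and 2065 in GSK-343, and at 828 and 917 in TSA. The GSK-343 libraries were above all others, and TSA lay just below DMSO. The means were 946 ± 28.4, 2275 ± 231 and 872 ± 62.9 CPM. TSA was lower than GSK-343 by -1.38 ± 0.29 (adjusted p = 0.0107), and GSK-343 was higher than DMSO by 1.27 ± 0.29 (adjusted p = 0.00349). TSA against DMSO gave -0.12 ± 0.31 (adjusted p = 0.804), but 0.59 with total count scaling (adjusted p = 0.15) and 1.06 by limma on TPM (adjusted p = 0.0282). Without TSA replicate 2, the difference between TSA and GSK-343 was -1.48 and not called (adjusted p = 0.0716).

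**Figure D3:**
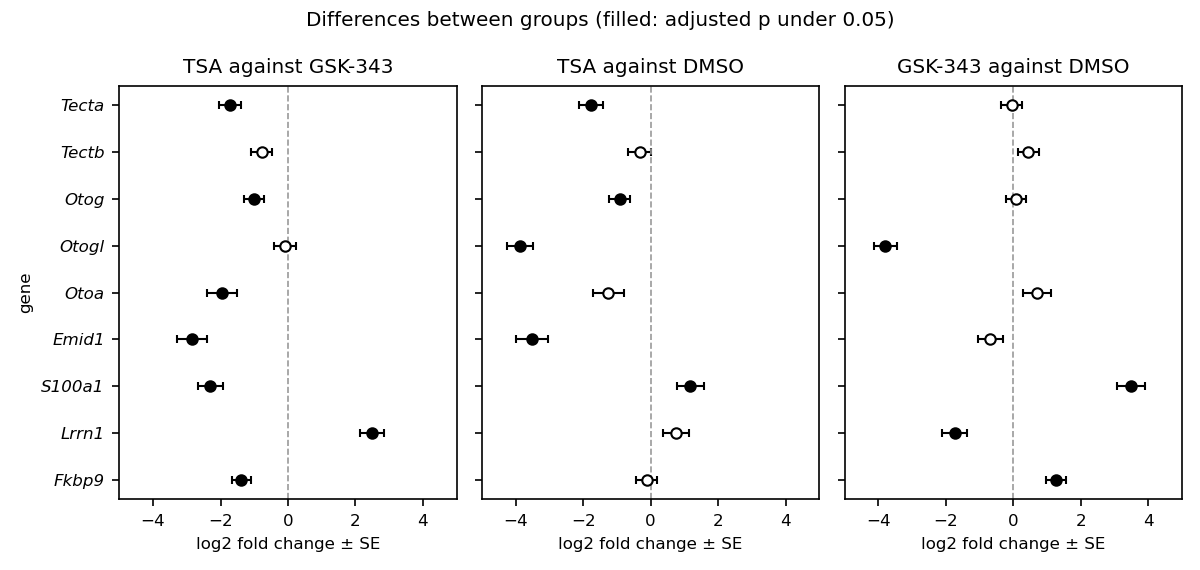
Log2 fold change ± SE of the 9 tested members in the 3 comparisons, from edgeR's model of all 7 libraries, with filled points for adjusted p under 0.05. Otogl is lowered in both comparisons with DMSO and near 0 between the treatments. Emid1, Tecta and Otog are lower in both comparisons of TSA, with filled points.

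Beside the members, the collagen and gel genes listed for the tectorial membrane also differed between treatments. Of 15 genes listed, 10 were tested; none was higher in TSA than in GSK-343 and 4 were lower by edgeR, with a median log2 difference of -1.10 (0 higher and 5 lower at an unadjusted p under 0.05, 0 and 4 by DESeq2, 0 and 1 by limma on TPM). All 4 are collagen chains, which are also abundant in cartilage. Col2a1, the chain of type II collagen, was measured at 2938 and 3243 CPM in DMSO, at 3511, 5750 and 4695 in GSK-343, and at 1650 and 1349 in TSA. TSA was below every other library for Col2a1, with a difference from GSK-343 of -1.63 ± 0.32 (adjusted p = 0.00859), lost without TSA replicate 2 (-1.51, adjusted p = 0.0736).

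Col11a2, a type XI chain known for non-syndromic deafness, had 335 and 495 CPM in DMSO, 143, 343 and 265 in GSK-343, and 53.2 and 43.4 in TSA. Its difference between TSA and GSK-343 was -2.37 ± 0.40 (adjusted p = 0.00413). Of the type IX chains, Col9a2 differed by -1.86 ± 0.40 (adjusted p = 0.0117) and Col9a3 by -1.33 ± 0.40 (adjusted p = 0.0463), and TSA lay below all GSK-343 libraries for both. The Col9a2 call was lost without TSA replicate 2 (-1.64, adjusted p = 0.113). The Col9a3 call lies at the threshold and was lost in 15 of 19 alternatives, among them every leave-out except those of GSK-343 replicate 1 and TSA replicate 1 (adjusted p = 0.0606 to 0.363). Chains of the same collagens did not all differ: Col9a1 gave -0.29 ± 0.30 (adjusted p = 0.57) and Col11a1 0.29 ± 0.29 (adjusted p = 0.556). These 2 were named after their values were seen. Against DMSO, none of the 10 genes was higher in TSA and 4 were lower (Col2a1, Col11a2, Col9a3 and Col11a1), and in GSK-343 2 were higher and 3 lower. DESeq2 called 1 higher and 4 lower in TSA and 2 and 3 in GSK-343. Limma on TPM called 2 higher and 3 lower in TSA and 4 and 1 in GSK-343. By edgeR, 29.2% of all genes were called in TSA against DMSO and 39.6% in GSK-343 against DMSO.

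**Figure D4:**
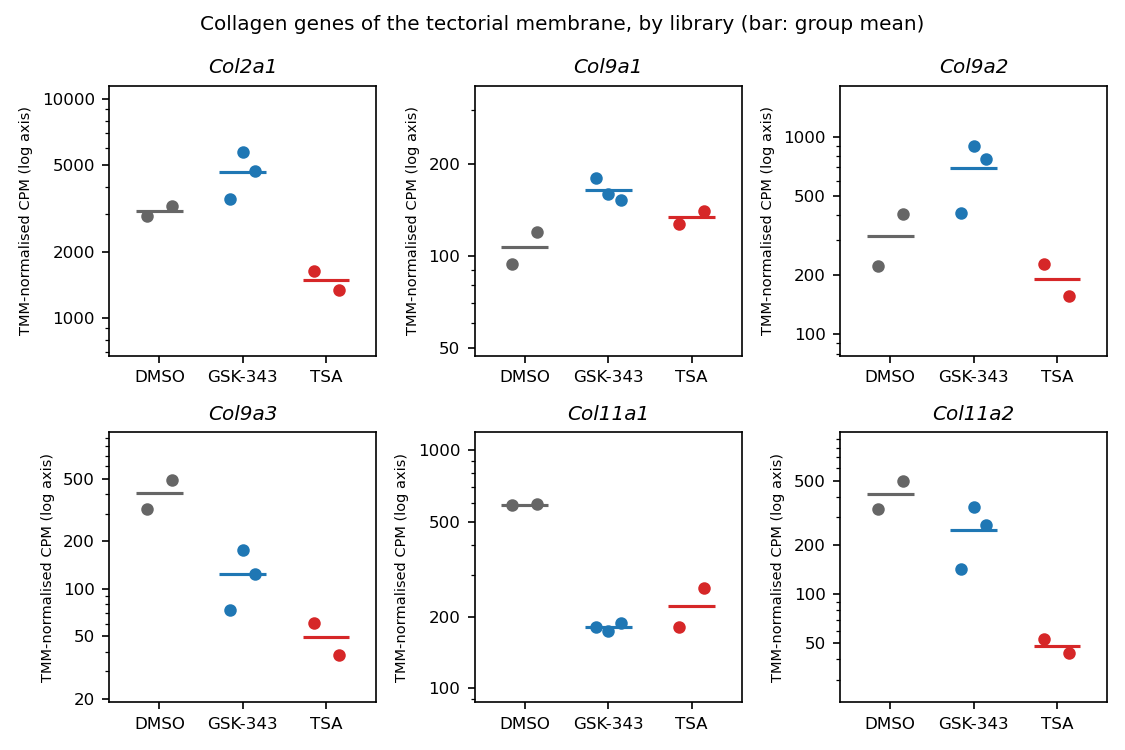
TMM-normalised CPM (log axis) of the 6 collagen chains by group, with 1 point per library and a bar at the group mean. The TSA points lie below all GSK-343 points for Col2a1 (1349 and 1650 CPM), Col9a2, Col9a3 and Col11a2 (43.4 and 53.2 CPM), and also for Col9a1, whose difference did not pass the test, while they overlap for Col11a1.

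Among 10 regulators listed for this tissue, 2 were lower in TSA than in GSK-343 and none higher by edgeR (3 and 0 at an unadjusted p under 0.05, 2 and 0 by DESeq2, 0 and 0 by limma on TPM). Against DMSO, 3 were lower and none higher in TSA, and 2 were lower and 2 higher in GSK-343. Limma on TPM called 1 lower and none higher in TSA, and none lower and 1 higher in GSK-343. The edgeR counts against DMSO are near the background, in which 29.2% of all genes were called in TSA and 39.6% in GSK-343. Gata3, a transcription factor of the prosensory and supporting cell lineage, fell from 769 ± 10.0 CPM in GSK-343 to 313 ± 158 in TSA (-1.30 ± 0.34, adjusted p = 0.0275). Thrb, a thyroid hormone receptor needed for hearing, gave -1.59 ± 0.47 (adjusted p = 0.0466), and its GSK-343 libraries ranged from 334 to 1120 CPM. Without GSK-343 replicate 1, the Thrb difference was -0.93 (adjusted p = 0.0813), and 5 other leave-outs also ended that call, only that of GSK-343 replicate 2 keeping it. The Gata3 call was lost without GSK-343 replicate 3 (-1.27, adjusted p = 0.0615), and both calls without TSA replicate 2 (Gata3 -0.87, adjusted p = 0.321, and Thrb -1.21, adjusted p = 0.401). Emx2, a homeobox gene of the cochlear epithelium, gave -0.81 ± 0.36 and did not pass (adjusted p = 0.155).

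Of the other supporting cell markers, 31 of 32 were tested, and 9 were lower and 1 higher in TSA than in GSK-343, with a median of -0.69. Anxa2 (-2.85 ± 0.42, adjusted p = 0.00216), Hey1 (-2.13 ± 0.33, adjusted p = 0.00268), S100b (-2.75 ± 0.55, adjusted p = 0.01) and Fabp7 (-2.26 ± 0.47, adjusted p = 0.0105) had the smallest p. Hey1 is a target of Notch signalling, and S100b is a relative of S100a1. Fabp7 was no longer called without TSA replicate 2 (-1.69, adjusted p = 0.118), and S100b gave -4.43 without TSA replicate 1. By limma on TPM, 2 were lower and none higher in TSA than in GSK-343. Against DMSO, 18 of the 31 markers were lower and 1 higher in TSA, and 12 were lower and 4 higher in GSK-343. These counts depend on the scale: limma on TPM called 5 lower and 5 higher in TSA, and 2 lower and 6 higher in GSK-343. By edgeR, 29.2% of all genes were called in TSA against DMSO and 39.6% in GSK-343 against DMSO.

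Among 11 tested markers of the medial non-sensory cells, 5 were lower in TSA than in GSK-343 (Epyc, Cpxm2, Tgfb2 and, named outside the rule, Igfbp3 and Cst3) and Itm2a was higher. Limma on TPM called 2 higher and none lower. The Cpxm2 call was lost without GSK-343 replicate 3 (-1.22, adjusted p = 0.0516) and without TSA replicate 2 (-1.24, adjusted p = 0.175). Against DMSO, 2 of the 11 were higher and 2 lower in TSA, and 4 higher and 1 lower in GSK-343. The shares over all genes there were 29.2% and 39.6%. By limma on TPM, 4 of these markers were higher and 1 lower in TSA, and 5 higher and none lower in GSK-343. Itm2a rose from 65.0 ± 21.1 CPM in GSK-343 to 202 ± 4.96 in TSA (1.64 ± 0.35, adjusted p = 0.0107). Its value without TSA replicate 2 was 1.64 and not called (adjusted p = 0.0781). Epyc, an extracellular proteoglycan, gave -2.53 ± 0.70 (adjusted p = 0.0342). That value moved with single libraries, to -1.69 without GSK-343 replicate 1 (adjusted p = 0.106), to -2.04 without TSA replicate 1 (adjusted p = 0.175) and to -3.30 without TSA replicate 2 (adjusted p = 0.104).

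The sums of some markers of other cell types differed between libraries. Differences from DMSO carry the layout as well. The summed TPM of 18 hair cell markers was 160 and 114 in DMSO, 747, 412 and 880 in GSK-343, and 2353 and 590 in TSA. Myo6 (55.9 to 680 TPM), Pou4f3 (1.39 to 518 TPM) and Calb2 (0.82 to 310 TPM) were the highest of them. None of 17 tested hair cell markers was called between TSA and GSK-343 by edgeR, DESeq2 or limma on TPM, and at an unadjusted p under 0.05 edgeR gave 5 higher and 1 lower. Against DMSO, 8 were higher in TSA and 7 in GSK-343, where 13.1% and 18.1% of all genes were higher. The mesenchyme list summed to 140 to 148 TPM in DMSO, 351 to 563 in GSK-343, and 783 and 410 in TSA. None of the hair cell, neuron or mesenchyme markers was at 0 in all 7 libraries. The stria vascularis list summed to 70.9 to 96.9 TPM. The immune list stayed between 8.45 and 52.6 TPM, the endothelial list between 18.0 and 41.0 TPM, and the erythroid list between 1.33 and 14.6 TPM. Between TSA and GSK-343, edgeR called 1 of 5 tested stria markers (Kcnq1) and 1 of 6 endothelial markers (Flt1) higher. Kcnq1 was at 0, 0.243 and 0.231 CPM in GSK-343 and at 3.08 and 5.57 in TSA. Flt1 was at 0, 0 and 1.39 CPM in GSK-343 and at 7.84 and 5.28 in TSA. Both fitted folds thus rest on a group near 0. DESeq2 called 0 stria and 2 endothelial markers higher, and limma on TPM called none of either list. None of 11 mesenchyme markers or 3 immune markers was called by edgeR. At an unadjusted p under 0.05, edgeR gave 1 higher and 1 lower mesenchyme marker and 2 lower immune markers, and DESeq2 called 1 and 0 of them. The summed TPM of the 32 supporting cell markers was 4764 to 6046 in DMSO, 6903 to 9737 in GSK-343, and 6602 and 3732 in TSA. TSA replicate 2, without which several calls were lost, also had the lower supporting cell sum and the higher mitochondrial share of its group. Leaving it out keeps a single TSA library, so a call can be lost while the difference stays much the same, as for Itm2a. The part of other cell types, of the share of supporting cells and of RNA quality in the member results was not tested.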

How the data were processed

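RNA was sequenced in 7 libraries from cochlear supporting cells (2 DMSO, 3 GSK-343, 2 TSA). Reads were aligned with STAR, quantified with RSEM on mm10, and analysed with DESeq2, per the submitters' processing notes; the annotation release is not given in the sources used here. Per the file headers, each table deposited by the authors gives RSEM's expected count, TPM and FPKM for every gene. Other columns in the deposited tables hold transcript length and effective length, in bases. Expected counts are not scaled between libraries, TPM values are per effective length with 1 fixed total in each library, and FPKM values were not used. Of 48709 genes, 48349 matched GENCODE M21 (GRCm38) after the version suffix was dropped, and 360 did not.

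Rounded expected counts were tested with edgeR 4.0.16 (R 4.3.3). The 14907 genes that passed filterByExpr were fitted in 1 quasi-likelihood model of all 7 libraries with TMM scaling, robust dispersion estimation and 4 residual degrees of freedom. The biological coefficient of variation was 0.43. SE is the size of the log2 difference divided by the root of the F statistic. The robust option was chosen to follow earlier processing of these files, and the fit without it is an alternative added later. The members and lists were chosen with earlier results of these data known. Text names all 10 members in every library and fixed cell type markers. From each other list it names up to 4 genes among those with the smallest p between TSA and GSK-343. For the FKBP, S100 and leucine-rich repeat lists only called genes are named, and for the EMI domain and CEACAM lists none. Thra, a regulator with the fourth smallest p and not called, was left out. Alternatives were other scalings and filters, only the 2 groups compared, a replicate block, each library left out, DESeq2 1.42.0, limma 3.58.1 on log2 TPM with pseudocounts of 1 and 0.1 (19336 genes), removal of a trend on GC content and length, and protein-coding nuclear genes alone. The pipeline was tested on simulated data. Replicates differed by more than sampling noise, with a chi-square per degree of freedom of 14.7 to 43.1 between libraries of a group. Their log2 CPM correlation was 0.892 to 0.947. Promoter sequences are from RefSeq (GRCm38.p6), with 8 of 10 members matched. Figures were made with matplotlib 3.10.9. A marker result is not reported here.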

Additional observations from a re-analysis of the deposited data

How the results depend on the processing

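Direction and call were as reported in 141 of 171 member values for TSA against GSK-343, 136 of 171 for TSA against DMSO and 150 of 171 for GSK-343 against DMSO. The cause of the changes below was not tested.

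Between TSA and GSK-343, 7 members and 1598 genes were called. Limma on TPM called 2 members with either pseudocount, Emid1 and Lrrn1, and 1007 genes with a pseudocount of 1 or 619 with 0.1; 82.8% and 81.3% of the calls were higher, against 47.1%, and it put the median of all genes at 0.24 and 0.33. Total count scaling called 70.3% higher, with that median at 0.20. Leaving out 1 library gave 4 to 7 members and 162 to 2111 genes, the lowest without TSA replicate 2. Otogl, near 0, changed sign with total count scaling (0.17), a filter of 50 counts in 2 libraries (0.044) and limma on TPM (0.21 and 0.23), and ranged from -0.50 to 0.22 over the leave-outs. Col9a1 gave 0.093 and 0.094 by limma. Col11a1 gave -0.16 with the GC and length trend removed, and -0.028 to 0.54 over the leave-outs.

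Between TSA and DMSO, 5 members and 4359 genes were called. The members were 1 higher and 4 lower, but 3 higher and 2 lower by limma on TPM and 2 higher and 3 lower with total count scaling. The fit without robust estimation called 3 members, and leave-outs 3 to 6 members and 1984 to 5224 genes. Limma on TPM called 7530 and 6876 genes (66.9% higher with either pseudocount, against 44.9%), and total count scaling 74.8% higher, with the median of all genes at 0.67, 0.84 and 0.65. Changes of sign were Tectb (0.38 with total counts, 0.57 by limma), Otog (0.82 by limma) and Fkbp9 (0.59 and 1.06, and -0.15 to 0.006 over the leave-outs).

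Between GSK-343 and DMSO, 2 members were higher and 2 lower, and every leave-out called 4 members and 4780 to 6439 genes. Limma on TPM called 5 members higher and 1 lower with either pseudocount, and total count scaling 4 higher and 2 lower. Total count scaling called 63.5% higher, against 45.7%, and limma 56.6% and 57.8%, with the median at 0.42, 0.24 and 0.29. Tecta changed sign with total counts (0.42), no filter (0.054), limma (1.54) and the trend removed (0.50), and ranged from -0.20 to 0.20 over the leave-outs. Otog gave -0.038 with the filter of 50 counts, -0.013 with protein-coding nuclear genes alone, and -0.037 to 0.22 over the leave-outs. Tectb gave -0.30 with the trend removed.

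The main fit used replicate numbers only as names of libraries. Deviations of same-numbered libraries from their group means had correlations of -0.094 to 0.04. In a group of 2 libraries these deviations mirror each other, so this check cannot exclude a pairing. With the replicate number as a block, 852 genes were called between TSA and GSK-343, of which Otog was not one (adjusted p = 0.103).

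With 2 or 3 libraries a group and 2724381 to 5974230 counts, single libraries decide calls near the threshold. Leaving out 1 library of a pair assumes that the other varies like the remaining groups. Levels of Ceacam16 lie under the limit that a count of 0 allows.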

Other observations

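Some relatives of the members were called between TSA and GSK-343, a comparison in which 5.04% of all genes were higher and 5.68% lower. Of 11 tested FKBP genes, 3 were lower and none higher by edgeR and by DESeq2, also at an unadjusted p under 0.05: Fkbp4 (-2.01 ± 0.39, adjusted p = 0.00763), a co-chaperone of Hsp90, Fkbp8 (-1.40 ± 0.40, adjusted p = 0.0385) and Fkbp1a. Limma on TPM called none of the listed FKBP or S100 genes between TSA and GSK-343. The Fkbp8 call was lost in 10 of 19 alternatives. Fkbp4 was measured at 375 ± 85.0 CPM (n = 3) in GSK-343 and 93.0 ± 51.1 (n = 2) in TSA. Without TSA replicate 2, neither Fkbp4 (-1.56, adjusted p = 0.0895) nor Fkbp8 (-1.03, adjusted p = 0.421) was called, and Fkbp8 was also lost without GSK-343 replicate 2 (adjusted p = 0.0939) and without GSK-343 replicate 3 (adjusted p = 0.1). Of 5 tested S100 genes, S100b was lower (-2.75 ± 0.55, adjusted p = 0.01), the 1 gene with an unadjusted p under 0.05. Its levels were 166 and 162 CPM in DMSO, 115, 187 and 172 in GSK-343, and 39.5 and 7.33 in TSA, so that its DMSO and GSK-343 libraries overlapped, which those of S100a1 did not.

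Of 9 tested leucine-rich repeat genes related to Lrrn1, 2 were higher in TSA than in GSK-343 and none lower. Lingo1 stood at 0.567, 0.243 and 1.39 CPM in GSK-343 and at 19.0 and 10.3 in TSA (4.25 ± 0.97, adjusted p = 0.0154). Lrrn4 was at 0, 0 and 0.231 CPM in GSK-343, at 7.0 and 3.23 in TSA, and at 5.84 and 6.52 in DMSO, so its fitted fold rests on a group near 0. Neither gene kept its call without TSA replicate 1 (Lingo1 3.74, adjusted p = 0.153, and Lrrn4 4.84, adjusted p = 0.0985) or without TSA replicate 2 (Lingo1 4.61, adjusted p = 0.0827, and Lrrn4 5.94, adjusted p = 0.074). Neither of the 2 EMI domain genes nor any of the 3 CEACAM genes tested was called in that comparison by edgeR, DESeq2 or limma on TPM, with 1 gene of each at an unadjusted p under 0.05.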
